A study of Homo sapiens with 16 samples.

Results

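The AP-1 genes FOS, FOSB, FOSL1, FOSL2, JUN, JUNB and JUND were examined in Ccd18-Co cells together with ATF3, MAFF and BATF3, which encode related leucine-zipper proteins. They are 10 of the 40663 gene symbols in the table. The genes were chosen by family name, with the level of ATF3 under GSK-J4 already known, so every contrast that involves GSK-J4 is described for them by values, fold changes and standard errors, with no p-value, and how many passed the fit's threshold there is given only as a description. Contrasts among the remaining 3 groups were tested. Earlier results of these data were known when the genes were chosen, so these tests are not fully independent of that choice.

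Ccd18-Co is a fibroblast line from human colon, sequenced here as 16 bulk RNA libraries in 4 groups of 4. The unstimulated group received no cytokine and was given the solvent DMSO, and the other groups were first exposed to 3 pulses of a cytokine mix holding 10 ng/ml each of TNF, OSM and IL-17A, and 0.1 ng/ml of IL-1B. Each pulse lasted 72 h with 96 h of recovery, and after 1 week of rest the pulsed cells were given, for 5 days, either DMSO (the vehicle group), 250 nM belinostat, which inhibits histone deacetylases, or 10 µM GSK-J4, which inhibits H3K27 demethylases. Doses and group sizes are those of the labels. For this kind of experiment the study's text gives fewer replicates, and an IL-1B dose that is lower in some places and the same in another. It gives another dose of the compounds for an ELISA, and its supplement gives that belinostat dose for all assays unless stated otherwise. Lysates were made 2 weeks after this treatment ended, so each level is one that was left after the exposures and not an acute response. All groups derive from a single cell line, and the labels do not say whether the replicates came from separate culture runs, so p-values measure the spread between these libraries, which may be technical.

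AP-1 is a dimer of a JUN protein with a FOS protein or with another partner of the same leucine-zipper class. It binds short palindromic elements in promoters and enhancers. In fibroblasts it is known for rapid induction by growth factors and cytokines through MAP kinases, and for driving matrix metalloproteinases and cytokines. FOS, FOSB and JUN are classical immediate-early genes, while FOSL1, FOSL2 and JUND tend to be expressed for longer. ATF3 is a stress-induced member of the ATF family that can dimerize with JUN proteins, MAFF is a small MAF protein with no activation domain of its own, and BATF3 is a partner of JUN proteins best known from dendritic cells.

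The libraries held 14.4 to 19.5 M estimated counts each. All 9 fibroblast markers were above a mean of 10 normalized counts (estimated counts divided by the library's size factor) over the 16 libraries, the lowest being THY1 at 12200. None of the 5 epithelial markers and 1 of the 4 immune markers (CD68) reached that level, and KRT20, CD3E and MS4A1 were at 0. Of the 3 endothelial markers only VWF reached it, and the mean of CDH5 was 0.0555. In bulk RNA, fewer cells that express a gene and less RNA per cell cannot be told apart.

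The promoters of JUN, JUNB and FOSL2, which were called under belinostat, and of ATF3 are shown first. That of JUND stands beside them as the JUN gene that was not called in any contrast. RefSeq (GRCh38.p14) gives promoters for 8 of the 10 genes, with none for FOSL1 and BATF3. Those of FOS, FOSB and MAFF are not printed. Each line holds the 250 bases before an annotated start, 5′ to 3′ on the gene's strand. Capitals mark the AP-1 element TGACTCA, its variant TGACATCA, the cyclic-AMP element TGACGTCA, its core TGACG and the C/EBP-ATF element TGATGNAAN, each searched on both strands.
JUN (chr1:58784048-58784297, minus strand): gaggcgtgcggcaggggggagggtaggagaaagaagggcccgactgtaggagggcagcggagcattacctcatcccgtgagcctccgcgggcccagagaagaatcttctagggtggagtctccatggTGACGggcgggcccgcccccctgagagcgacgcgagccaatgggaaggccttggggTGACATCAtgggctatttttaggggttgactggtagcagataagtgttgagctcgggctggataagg
JUNB (chr19:12791236-12791485, plus strand): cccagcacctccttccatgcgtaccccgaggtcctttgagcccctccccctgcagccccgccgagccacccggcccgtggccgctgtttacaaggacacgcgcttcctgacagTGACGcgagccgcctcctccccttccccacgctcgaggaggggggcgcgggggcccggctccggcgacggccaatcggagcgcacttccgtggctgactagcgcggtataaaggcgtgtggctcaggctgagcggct
FOSL2 (chr2:28392608-28392857, plus strand): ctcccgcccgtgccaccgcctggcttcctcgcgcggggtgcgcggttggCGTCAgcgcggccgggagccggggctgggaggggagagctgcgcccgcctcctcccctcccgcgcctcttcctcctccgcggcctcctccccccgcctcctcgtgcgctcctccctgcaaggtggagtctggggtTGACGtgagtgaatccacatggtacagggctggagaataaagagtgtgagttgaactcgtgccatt
JUND (chr19:18281623-18281872, minus strand): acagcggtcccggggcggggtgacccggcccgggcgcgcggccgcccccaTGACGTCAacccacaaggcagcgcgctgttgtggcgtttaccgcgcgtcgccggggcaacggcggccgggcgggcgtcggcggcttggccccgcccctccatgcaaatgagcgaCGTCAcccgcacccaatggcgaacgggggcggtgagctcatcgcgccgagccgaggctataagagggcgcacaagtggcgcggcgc
ATF3 (chr1:212608511-212608760, plus strand, hg38, before the start of the canonical GENCODE v44 transcript): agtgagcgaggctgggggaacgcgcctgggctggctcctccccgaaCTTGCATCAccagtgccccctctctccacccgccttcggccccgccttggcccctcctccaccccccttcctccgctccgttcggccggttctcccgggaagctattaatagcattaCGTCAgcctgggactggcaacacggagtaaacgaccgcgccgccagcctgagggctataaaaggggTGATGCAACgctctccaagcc

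The core TGACG, which also lies inside TGACGTCA, stood in the RefSeq windows of 7 of the 8 genes, compared with 24.6% of 35116 promoter windows of the same length (250 bases before the start and 50 after it). TGACGTCA was found in JUND and MAFF (1.85% of all promoters). TGACTCA was found in FOSL2 alone, at base 5 after the start and so outside the printed stretch (4.95%). The variant TGACATCA was found in JUN, at position -67 from the start, and in a RefSeq window of ATF3 that lies upstream of the one printed (2.61%). It was added to the search after the sequences had been seen. TGATGNAAN stood in that upstream window of ATF3 (3.61% of promoters) and at positions -204 and -21 from the canonical start in the stretch printed above, which also holds a core TGACG on the minus strand at -87. The estimated counts are given per gene symbol and do not tell which of the annotated ATF3 starts was used. A match is a string of letters and does not show binding.

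Levels of different genes were compared as normalized counts per kb of the canonical transcript. On this scale FOSL2 stood highest, with group means of 1227 to 1482 per kb. JUND (740 to 805) and JUN (601 to 802) overlapped each other, and JUNB followed at 346 to 502. MAFF lay at 99.6 to 111 and FOSL1 at 47.0 to 79.0. BATF3 lay at 34.8 to 60.0. The least abundant were ATF3 (13.5 to 61.2), FOS (10.5 to 15.4) and FOSB (2.61 to 6.37). The plot of levels per kb shows the same order in the 4 groups but for ATF3, which lay below FOS in vehicle cells and just above BATF3 in GSK-J4 cells. Among these genes, the cells held mostly FOSL2 and JUN-family transcripts and little FOS or FOSB.

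**Figure D1:**
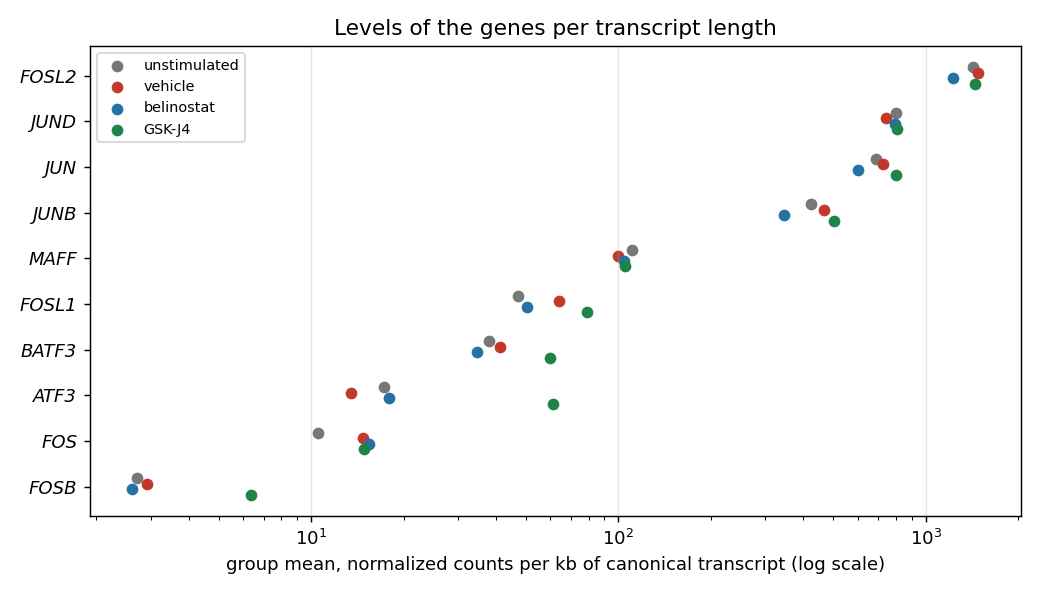
Group mean level of each gene in normalized counts per kb of canonical transcript, on a log axis, with 1 point per group. FOSL2 lies at 1227 or more in all groups and FOSB at 6.37 or less, and the widest gap between groups is that of ATF3, from 13.5 in vehicle to 61.2 in GSK-J4 cells.

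Between groups, GSK-J4 cells had the highest mean for 7 of the 10 genes and belinostat cells the lowest for 5. Of the remaining genes, the highest mean was in the unstimulated group for 1, in the vehicle group for 1 and in the belinostat group for 1. These counts describe means and carry no test.

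**Figure D2:**
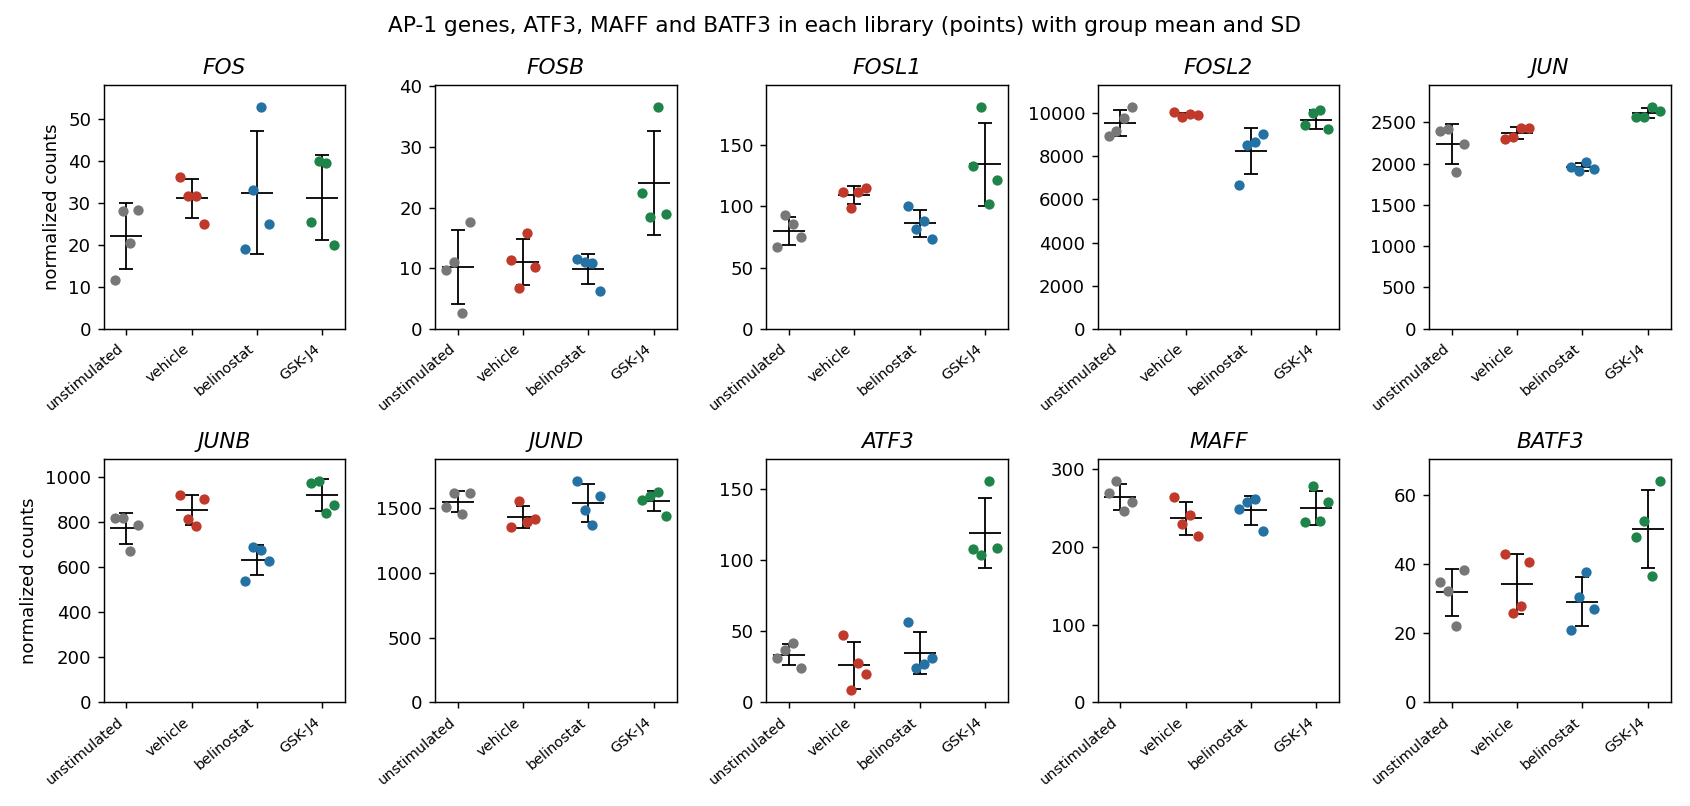
Normalized counts of each gene (linear axes from 0) in the 4 libraries of each group, with a bar at the mean and whiskers of 1 SD. ATF3 is above 103 in all GSK-J4 libraries and below 57 in the others, and JUN and JUNB are lower in all belinostat than in all vehicle libraries.

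The first question was whether the pulses alone left a difference in these genes, and none was called. Of the 10 genes, 0 passed an adjusted p of 0.05 in vehicle compared with unstimulated cells (DESeq2, Benjamini-Hochberg over all genes tested; edgeR also called 0), and 1 had an unadjusted p under 0.05. Of all genes tested, 1.74% were called in this contrast. The median log2 fold change was 0.10 for the 10 genes and 0.00 for all genes.

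That gene was FOSL1, which encodes FRA-1, a FOS protein without the transactivation domain of FOS. Its normalized counts were 66.6, 93.1, 85.2 and 75.2 in the unstimulated libraries and 111, 98.7, 112 and 115 in the vehicle libraries. The groups did not overlap, as was true of 6.93% of all genes tested. The log2 fold change was 0.45 (SE 0.18, adjusted p = 0.272 by DESeq2), which did not pass the threshold.

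JUN and JUNB, the principal dimer partners, were close in both groups. JUN had a mean of 2239 ± 242 normalized counts (SD, n = 4) in unstimulated and 2371 ± 67.6 in vehicle cells, and JUNB 774 ± 68.6 and 854 ± 67.1. The 95% intervals of the log2 fold change were -0.04 to 0.21 for JUN and -0.03 to 0.32 for JUNB. For the low-count genes the intervals were wide: -0.19 to 1.18 for FOS, -0.79 to 1.04 for FOSB and -1.09 to 0.36 for ATF3. With 4 libraries a group and counts this low, any change within these intervals remained compatible with the data. For ATF3 the log2 fold change of -0.36 became -0.82 without vehicle replicate 13 and -0.07 without vehicle replicate 14, and for FOS that of 0.50 became 0.28 without unstimulated replicate 1.

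Genes that AP-1 is known to drive did differ between the same groups. Of 20 AP-1 target genes, 17 were tested and 4 rose, 0 fell, and their median log2 fold change was 0.35. CXCL8, a neutrophil chemokine, rose by 2.36 (SE 0.22, adjusted p = 7.26e-23, DESeq2), from 77.5 ± 10.3 to 396 ± 146 normalized counts. MMP3 (stromelysin) rose by 1.60 (adjusted p = 0.00163) and MMP1 (interstitial collagenase) by 1.45 (adjusted p = 0.000446, DESeq2). The fourth was CCND1 (cyclin D1, log2 fold change 0.35), which is named here because it completes the count and was picked after its value was seen. The target list was drawn up with earlier results of these data known, so its direction is not independent evidence.

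In the lists upstream and around AP-1, 0 of 19 immediate-early genes and 0 of 18 other leucine-zipper genes tested were called after the pulses by DESeq2 or by edgeR, and 1 gene of each list had an unadjusted p under 0.05. Of 23 MAP kinase and feedback genes, 1 was called: MAP3K5 (ASK1, a stress-activated kinase upstream of JNK and p38) rose by 0.38 (SE 0.07, adjusted p = 2.1e-06, DESeq2). Of 12 genes of the integrated stress response, VLDLR, a lipoprotein receptor, fell by 0.57 on the log2 scale (adjusted p = 9.08e-05, DESeq2).

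Belinostat was compared with vehicle to ask whether it moved the level of these genes in pulsed cells. JUN, JUNB and FOSL2 fell and 0 rose: 3 of the 10 genes were called, compared with 6.26% of all genes tested. The groups did not overlap for these 3, as was the case for 11.4% of all genes tested. The median log2 fold change was -0.20 for the 10 genes and 0.00 for all genes, and the median absolute value was 0.26 and 0.09.

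JUNB, which dimerizes like JUN but is a weaker activator on its own, had 919, 813, 782 and 903 normalized counts in the vehicle libraries. The belinostat libraries had 540.4, 688, 675 and 627, all below the lowest vehicle library. JUNB fell by 0.44 on the log2 scale (SE 0.09, fold 0.739, adjusted p = 0.000127, DESeq2). HOOK2 shares exon bases with JUNB, and the reads were quantified at default settings, which do not use strand, so reads from the shared bases cannot be told apart by strand. HOOK2 had a log2 fold change of 0.18 (SE 0.09), opposite in sign.

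JUN, the transactivating partner of FOS proteins, had 2304, 2321, 2426 and 2432 normalized counts in the vehicle libraries and 1954, 1912, 2023 and 1937 in the belinostat libraries. The spread within each group was narrow (SD 67.6 and 47.4) relative to the difference between means of 2371 and 1957. JUN fell by 0.28 (SE 0.06, fold 0.825, adjusted p = 0.000698, DESeq2). The calls of JUN and JUNB held in all 13 alternatives tried.

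FOSL2 encodes FRA-2 and was the most abundant of the genes per kb. Its vehicle libraries were close together at 10050, 9841, 9967 and 9934 normalized counts, and the belinostat libraries read 6669, 8551, 8662 and 9062. Belinostat replicate 17 stood below the other 3. The same library had the highest summed level of the 4 immune markers (478, within a belinostat range of 149 to 478), which was nearly all CD68. The range was 218 to 333 in vehicle, 225.5 to 391.8 in unstimulated and 234.7 to 449.5 in GSK-J4 libraries. FOSL2 fell by 0.27 (SE 0.08, adjusted p = 0.00988, DESeq2). Without replicate 17 it fell by 0.18 and was still called (adjusted p = 0.00511), and by edgeR the adjusted p was 0.0508.

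The other 7 genes did not pass the test. FOSL1 had 100.2, 81.8, 88.5 and 73.7 normalized counts in the belinostat libraries, with a log2 fold change of -0.34 (SE 0.18, adjusted p = 0.334, DESeq2). JUND, the JUN gene that is least inducible, had 1706, 1481, 1368 and 1592 in belinostat and 1353, 1553, 1391 and 1414 in vehicle libraries. These groups overlapped, and the log2 fold change of JUND was 0.11 with an interval of -0.03 to 0.25. ATF3 had 56.3, 24.4, 27.0 and 31.2 normalized counts under belinostat and 47.6, 8.62, 27.9 and 20.3 under vehicle, with a log2 fold change of 0.42 (SE 0.37, adjusted p = 0.688, DESeq2). That value rested on single libraries: it was 0.88 without vehicle replicate 13, 0.14 without vehicle replicate 14 and 0.08 without belinostat replicate 17. The values of FOS ranged from 19.1 to 52.9 in belinostat and from 24.9 to 36.2 in vehicle libraries. FOSB, MAFF and BATF3 had log2 fold changes of -0.16, 0.06 and -0.25.

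**Figure D3:**
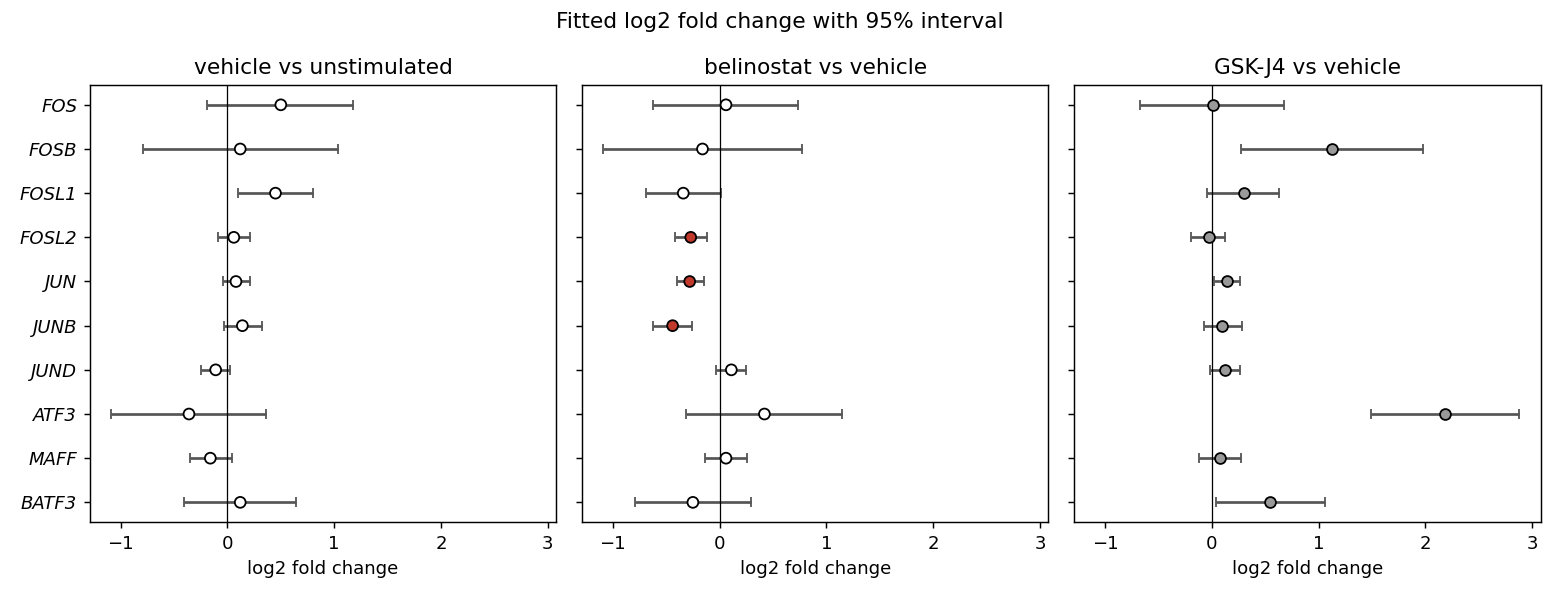
Log2 fold change of each gene with its 95% interval in 3 contrasts, with red points for genes called in the 2 tested contrasts. Points of the GSK-J4 contrast are grey since they carry no test, and their intervals are not read as one. FOSL2, JUN and JUNB lie below 0 under belinostat (-0.27, -0.28 and -0.44), and ATF3 lies at 2.18 under GSK-J4.

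Among the 19 immediate-early genes, 4 fell and 1 rose under belinostat, with a median log2 fold change of -0.20. NR4A1, an orphan nuclear receptor, fell by 0.65 (SE 0.15, adjusted p = 0.00117, DESeq2), from 187 ± 25.4 to 119 ± 30.7 normalized counts, although its groups overlapped. ZFP36 (tristetraprolin, which destabilizes cytokine mRNAs) fell by 0.31, as did KLF10 by 0.26 and SRF by 0.20, the last 2 named after their values were seen. The call of KLF10 was lost without belinostat replicate 17, without any of vehicle replicates 13, 15 and 16, by edgeR and when the other groups were left out of the fit. DUSP1, a phosphatase that inactivates JNK, p38 and ERK, rose by 0.45 (SE 0.10, adjusted p = 0.000486, DESeq2), from 565 ± 59.1 to 775 ± 110 normalized counts. DUSP10, a phosphatase for JNK and p38, rose by 0.28 (adjusted p = 0.00545, DESeq2). It was the only one of 23 MAP kinase and feedback genes called in this contrast, beside 6.26% of all genes tested.

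Of 18 other leucine-zipper genes tested, 3 were called, 1 higher and 2 lower, and the latter are described here. MAF, a large MAF factor, fell by 0.28 on the log2 scale (SE 0.09, adjusted p = 0.0272, DESeq2), from 3024 ± 110 to 2490 ± 308 normalized counts. CEBPD, an inflammatory C/EBP factor, fell by 0.23. The call of MAF held in 8 of 13 alternatives and was lost by edgeR and without vehicle replicate 13, 14 or 15 or belinostat replicate 17. That of CEBPD held in 6 and was lost by edgeR and without any vehicle replicate or belinostat replicate 17 or 19.

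Of the 20 AP-1 targets, 16 were tested under belinostat, of which 3 fell and 0 rose, with a median of -0.14. MMP1 fell by 1.58 (SE 0.31, adjusted p = 2.17e-05, DESeq2), from 819 ± 242 to 274 ± 139 normalized counts, compared with 299.8 ± 72.9 in unstimulated cells. CXCL8 fell by 0.75 (adjusted p = 0.00973), a call that was lost without vehicle replicate 16, where it fell by 0.47, and without belinostat replicate 18. At 235 ± 30.5 normalized counts it stayed above the 77.5 ± 10.3 of unstimulated cells (log2 fold change 1.60, adjusted p = 1.62e-10, DESeq2). In belinostat relative to unstimulated cells, 2 of the 16 targets tested were called higher and 1 lower. Of 12 genes of the integrated stress response, 0 were called by DESeq2 or by edgeR, and 1 had an unadjusted p under 0.05.

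Belinostat-treated cells were also set against unstimulated cells, to place the belinostat levels relative to cells that had never seen the cytokines. JUN and JUNB were lower: 2 of 10 genes were called, compared with 10.3% of all genes tested, and for 0 of the 10 did the groups fail to overlap (12.3% of all genes). JUN fell by 0.19 (SE 0.06, adjusted p = 0.0309, DESeq2), and its lowest unstimulated library, replicate 3 at 1896, lay below all belinostat libraries. JUNB fell by 0.29 (SE 0.09, adjusted p = 0.021), and here too unstimulated replicate 3 (673) lay within the belinostat range. Both calls were lost without unstimulated replicate 1, 2 or 4 and without belinostat replicate 17 or 20, and that of JUN also without belinostat replicate 18 and by edgeR. Leaving the other groups out of the fit ended both. FOSL2 had a log2 fold change of -0.21 (adjusted p = 0.0549, DESeq2), which was -0.12 without belinostat replicate 17. Over the 13 alternatives it ranged from -0.26 to -0.12 and passed the threshold in 3. ATF3 had a log2 fold change of 0.06 (SE 0.37).

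Under GSK-J4 the largest difference from vehicle was that of ATF3, whose level served to choose the genes. ATF3 had 108, 103, 155 and 108 normalized counts in the GSK-J4 libraries and 47.6, 8.62, 27.9 and 20.3 in the vehicle libraries. Every GSK-J4 library lay above all 12 other libraries of the series, and the highest of those 12 was belinostat replicate 17 at 56.3. Summed over 4 libraries, ATF3 had 463 counts under GSK-J4 and 111 under vehicle. The log2 fold change was 2.18 (SE 0.35), or 4.54-fold, and it ranged from 1.90 to 2.64 over the alternatives. Relative to unstimulated cells, which read 30.9, 37.0, 41.7 and 24.4, it was 1.82 (SE 0.35).

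FOSB, an immediate-early FOS gene, had 22.4, 18.4, 36.6 and 18.9 normalized counts in GSK-J4 libraries and 11.4, 6.71, 15.8 and 10.1 in vehicle libraries. The groups did not overlap, and the log2 fold change was 1.13 (SE 0.44). The counts were few, 94 in sum under GSK-J4 and 47 under vehicle. The gene lay below the mean of 16.3 normalized counts under which DESeq2 gave no adjusted p in this contrast. Unstimulated libraries had 9.65, 11.0, 2.66 and 17.6, of which replicate 4 came close to the lowest GSK-J4 library.

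BATF3 lies on the same chromosome arm as ATF3, with its start 134.5 kb from the outermost annotated start of the ATF3 gene. That ATF3 start lies upstream of the canonical one used for the printed promoter. BATF3 had 47.8, 52.2, 36.6 and 63.9 normalized counts under GSK-J4 and 42.8, 25.9, 27.9 and 40.6 under vehicle. The groups overlapped, and the log2 fold change was 0.55 (SE 0.26). Of the other genes whose start lies within 250 kb of that same outermost ATF3 start, 4 had a mean above 100 normalized counts. Their differences were small: 0.10 for PACC1, 0.03 for NENF, 0.09 for NSL1 and 0.01 for TATDN3, with SEs of 0.09 to 0.15. SNORA16B, at a mean of 0.175 normalized counts, was too low to give a usable value (SE 4.33).

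FOS itself, the eponymous immediate-early gene, had 25.4, 39.9, 39.6 and 19.9 normalized counts under GSK-J4 and 36.2, 31.6, 31.7 and 24.9 under vehicle, a log2 fold change of 0.01 (SE 0.34). FOSL1 had 133, 181, 102 and 122 under GSK-J4, and the groups overlapped (0.30, SE 0.17; 0.12 without GSK-J4 replicate 22). JUN had 2562, 2565, 2685 and 2639, all above the highest vehicle library at 2432, but the difference was small (0.14, SE 0.06). JUNB (974, 983, 839 and 877) and FOSL2 (9436, 10010, 10140 and 9268) overlapped with vehicle, with log2 fold changes of 0.10 and -0.03. JUND and MAFF had 0.12 (SE 0.07) and 0.08 (SE 0.10). MAFF shares exon bases with PLA2G6, whose log2 fold change was 0.05.

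By the fit's threshold 1 of the 9 genes that received an adjusted p was called, ATF3, beside 1.92% of all genes tested, and 3 of 10 (FOSB, JUN and ATF3) had groups that did not overlap, beside 10.0%. Relative to unstimulated cells 3 genes were called (FOSL1 at 0.75, JUN at 0.22 and ATF3 at 1.82), beside 5.55%, and 5 did not overlap, beside 11.9%. These counts follow from the contrast on which the genes were picked, and nothing is read from them.

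Other genes of the pathway were tested in the same contrast. KLF4, an immediate-early zinc-finger factor, was the only one of 19 immediate-early genes called, rising by 1.19 (SE 0.31, adjusted p = 0.0131, DESeq2) from 18.1 ± 3.84 to 41.5 ± 9.02 normalized counts. Its call was lost by edgeR, without GSK-J4 replicate 21, 22 or 23 and without vehicle replicate 15 or 16. ATF5, an ATF-family factor of the integrated stress response, rose by 0.65 (SE 0.16, adjusted p = 0.00463, DESeq2), from 230.2 ± 13.6 to 362 ± 23.7, and by edgeR had an adjusted p of 0.0551. It was the only one of 12 tested genes of that response to be called, and the median of the list was 0.17. Among the tested genes, the groups of ATF4, ATF5, PPP1R15A, NUPR1 and PHGDH did not overlap and were higher under GSK-J4. The same lack of overlap, in either direction, held for 10.0% of all genes tested. Only CHAC1 had a negative log2 fold change (-0.31, SE 0.54). PPP1R15A, NUPR1, PHGDH and CHAC1 are named after their values were seen. ATF4, the activator of that response, had 6123 ± 156 normalized counts under vehicle and 6996 ± 418 under GSK-J4 (log2 fold change 0.19, adjusted p = 0.26), and DDIT3 (CHOP) had 365 ± 28.7 and 417 ± 42.5 (adjusted p = 0.831, DESeq2).

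JDP2, which represses AP-1 by pairing with JUN proteins, fell by 0.17 (SE 0.05, adjusted p = 0.0248, DESeq2) under GSK-J4 as the only one of 18 other leucine-zipper genes called. MAP2K1 (MEK1) rose by 0.17 (adjusted p = 0.0273) as the only one of 23 MAP kinase and feedback genes. Each of these 2 calls held in 6 of 13 alternatives. Both were lost by edgeR, without GSK-J4 replicate 21 or 22 and without any of vehicle replicates 14, 15 and 16, that of JDP2 also without vehicle replicate 13 and that of MAP2K1 without GSK-J4 replicate 23. Of 15 AP-1 targets tested, 0 were called by DESeq2 or by edgeR and 3 had an unadjusted p under 0.05, and their median was 0.13. MMP1 had 868 ± 143 normalized counts under GSK-J4 and 819 ± 242 under vehicle. MMP3 had 2037 ± 330 and 1110 ± 267, groups that did not overlap, with a log2 fold change of 0.88 (SE 0.36, adjusted p = 0.291, DESeq2).

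**Figure D4:**
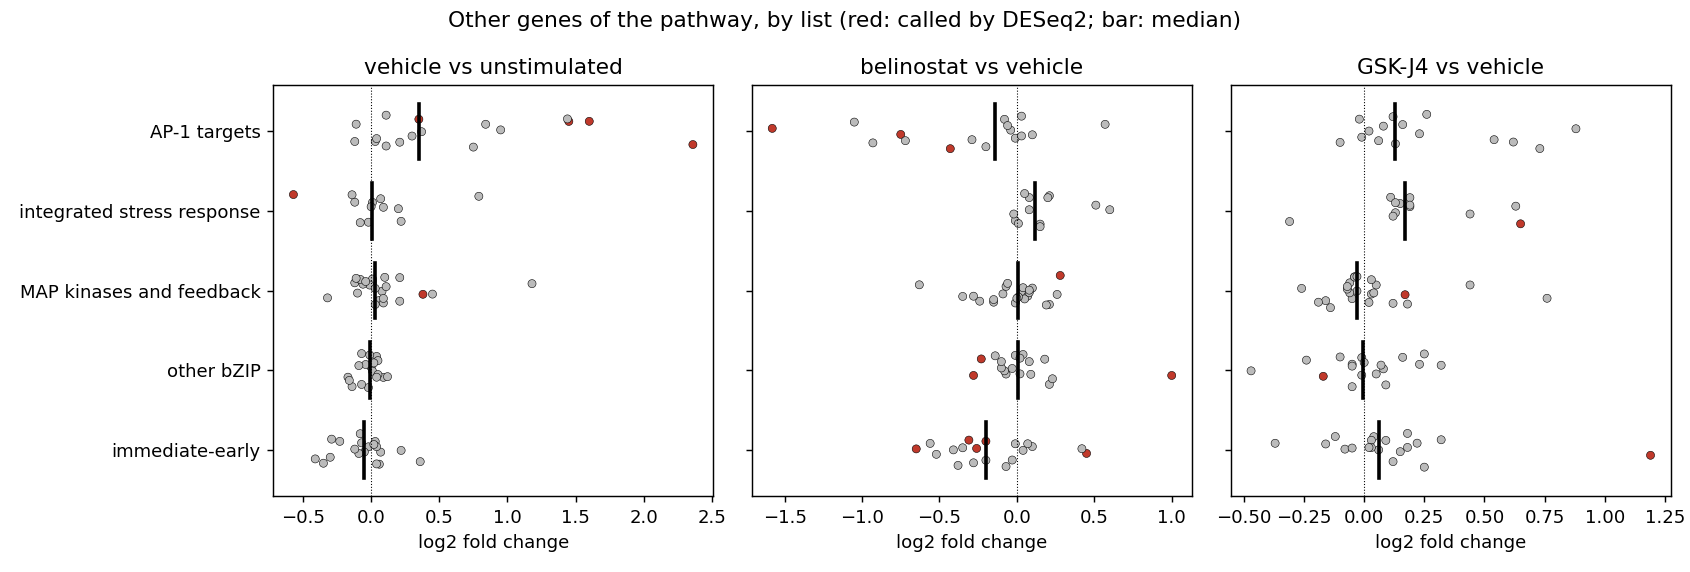
Log2 fold change of each tested gene in 5 lists of other pathway genes, in 3 contrasts with separate horizontal scales; red points passed an adjusted p of 0.05 by DESeq2 and black bars are medians. AP-1 targets have a median of 0.35 after the pulses and -0.14 under belinostat, and the immediate-early genes one of -0.20 under belinostat.

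Belinostat and GSK-J4 were given at different concentrations and act on different enzymes, so their groups are set side by side only as levels. JUN had 1954, 1912, 2023 and 1937 normalized counts under belinostat and 2562 to 2685 under GSK-J4, and JUNB 540.4 to 688 and 839 to 983. ATF3 had 24.4 to 56.3 and 103 to 155. The fitted log2 fold changes of belinostat relative to GSK-J4 were -0.42 (SE 0.06) for JUN, -0.54 (SE 0.09) for JUNB, -0.24 (SE 0.08) for FOSL2, -0.64 (SE 0.18) for FOSL1, -1.29 (SE 0.45) for FOSB, -1.76 (SE 0.35) for ATF3 and -0.79 (SE 0.27) for BATF3. These 7 were past the fit's threshold, beside 12.2% of all genes, and 6 of the 10 genes did not overlap, beside 17.0%. Without GSK-J4 replicate 22 only JUN, JUNB and ATF3 were past it, and without belinostat replicate 17 the value of FOSL2 was -0.15. FOS, JUND and MAFF had 0.05, -0.01 and -0.02. The contrasts share libraries with those above and add no separate evidence.

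The genes whose pattern was most like that of ATF3 over the 16 libraries were sought among 11740 genes with a mean of at least 50 normalized counts, by Pearson's r on the variance-stabilised scale, as a description. They were KYNU (0.89), ATF5 (0.88), DDB2 (0.88), NOTCH3 (0.88), FGF13 (0.87) and PTGR1 (0.86). Since the libraries fall into groups, r follows the high GSK-J4 group, where each of the 6 had its highest mean. KYNU, kynureninase of tryptophan breakdown, had 45.6 ± 4.88, 58.4 ± 14.3, 65.2 ± 12.5 and 224 ± 43.1 normalized counts in unstimulated, vehicle, belinostat and GSK-J4 cells. When each library was taken relative to its group mean, the closest genes were ZNF616 (0.84), AZI2 (0.83), GPT2 (0.76), ALDH1A3 (0.76), TMEM276 (0.74) and CA11 (0.74), and none of the first 6 was among them.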

How the data were processed

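RNA was measured in 16 libraries, grouped by their labels. The authors quantified reads with kallisto (0.48.0 per the labels, which name build hg38) and deposited estimated counts per gene symbol, not scaled to library size. The study's methods state default settings, which use no strand. The transcriptome release and the summing to symbols were not given in the sources used here. Columns of the unstimulated libraries read none where the titles give DMSO, and were matched by replicate number.

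The estimated counts were rounded and fitted with DESeq2 1.42.0 (R 4.3.3), the tool of the study's methods: a Wald test on all 16 libraries with group as the factor, median-of-ratios size factors and independent filtering. Genes with a Benjamini-Hochberg adjusted p under 0.05, over all genes tested, were called. In all, 6 contrasts were fitted. Alternatives were edgeR 4.0.16 (quasi-likelihood), TMM size factors, a count filter, no Cook's cutoff, only the groups compared and leaving out each library.

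The 10 genes and the 5 pathway lists were chosen with earlier results of these data known. From each list at most 4 called genes, those with the largest fold change, were named, with exceptions stated. Results on some items are not reported here. On simulated counts of vehicle compared with unstimulated cells (13886 genes), DESeq2 recovered 86 of 100 genes changed by 1 on the log2 scale and 100 of 100 changed by 2, with 21 false calls. Changes smaller than 1 were not simulated. Those of the 10 genes that were called in the tested contrasts were all smaller, so recovery at their size is not known. Gene models are GENCODE v44 (GRCh38), which may differ from those of the authors. The totals of 14.4 to 19.5 M counts per library limit precision mainly for FOS, FOSB, ATF3 and BATF3.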

Additional observations from a re-analysis of the deposited data

Results flagged for a closer look

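For each of the 10 genes in each of the 4 groups, the library farthest from the other 3 was compared with Dixon's 95% critical value for 4 samples. Of these 40 groups 2 exceeded it, and chance alone gives about 1 in 20. FOSB in belinostat replicate 20 had 6.23 normalized counts, where the others had 10.8 to 11.5. ATF3 in GSK-J4 replicate 23 had 155.4 normalized counts, where the others had 103.4 to 108. Without that library the log2 fold change of ATF3 relative to vehicle was 2.03, against 2.18 with it.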

How the results depend on the processing

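The calls of JUN and JUNB in belinostat relative to vehicle kept their direction and side of the threshold in all 13 alternatives. Counts in contrasts with GSK-J4 are descriptions, since the genes were chosen with ATF3's level there known. In GSK-J4 relative to vehicle, fitting only the groups compared put 2 genes (JUN and ATF3) past the threshold in place of 1. In belinostat relative to GSK-J4 the count of 7 became 3 to 6 when single libraries were left out. In belinostat relative to unstimulated cells the count of 2 became 1 by edgeR, 0 when only the groups compared were fitted and 0 to 2 when single libraries were left out. The cause was not tested.

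Differences near 0 changed sign when single libraries were left out. In vehicle relative to unstimulated cells, FOSB ranged from -0.21 to 0.52 and BATF3 from -0.03 to 0.23 on the log2 scale. In belinostat relative to vehicle, FOS ranged from -0.29 to 0.25 and FOSB from -0.34 to 0.06. In GSK-J4 relative to vehicle, FOS ranged from -0.13 to 0.17. In belinostat relative to GSK-J4, FOS ranged from -0.30 to 0.24, JUND from -0.07 to 0.04 and MAFF from -0.05 to 0.04. In belinostat relative to unstimulated cells, ATF3 ranged from -0.28 to 0.19, BATF3 from -0.29 to 0.00, FOSB from -0.37 to 0.36 and JUND from -0.06 to 0.04. In GSK-J4 relative to unstimulated cells, FOSL2 ranged from 0.00 to 0.06 and JUND from -0.02 to 0.04. None of these was called in any of those fits.

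Counts of called genes over the whole table moved by more than 1.5 times in 3 contrasts. In vehicle relative to unstimulated cells 282 genes were called, but 166 by edgeR and 180 to 295 without single libraries. In GSK-J4 relative to vehicle 253 were called, but 91 by edgeR, 542 with only the groups compared and 132 to 193 without single libraries. In belinostat relative to unstimulated cells 1461 were called, but 876 with only the groups compared. No paired analysis was possible because the groups share no replicate numbers. The likeness of the 6 genes to ATF3, recomputed after the data had been seen, was 0.81 to 0.84 on log2 normalized counts and 0.82 to 0.88 without GSK-J4 replicate 23.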
